A study of Homo sapiens with 24 samples.

Results

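Antigen presentation by MHC class I depends on a heavy chain, the light chain beta-2 microglobulin, and a set of proteins in the endoplasmic reticulum that cut, transport and load peptides. The 9 genes described here cover these steps: the heavy chains HLA-B, HLA-C, HLA-E and HLA-F, the light chain B2M, the transporter subunits TAP1 and TAP2, the loading factor TAPBP and the trimming enzyme ERAP1. They were taken as the rows whose gene symbol equals one of these names. All 9 were listed and had an adjusted p in both comparison tables, among 19417 such genes of 58780 listed for TPA and 13007 of 13025 listed for DMSO.

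The series knocked down PRKCQ, which encodes protein kinase C theta, in MyLa and HuT 78, cutaneous T cell lymphoma lines that derive from mycosis fungoides (MyLa) and Sézary syndrome (HuT 78). Of 24 RNA sequencing libraries, 3 each came from MyLa shPRKCQ TPA, HuT 78 shPRKCQ TPA, MyLa shPRKCQ DMSO, HuT 78 shPRKCQ DMSO, MyLa NTC TPA, HuT 78 NTC TPA, MyLa NTC DMSO and HuT 78 NTC DMSO cells, where NTC is a non-targeting hairpin. Knockdown cells received doxycycline at 1 µg/ml for 72 h or longer, and treatment with 10 ng/ml of the phorbol ester TPA or with its vehicle DMSO lasted 24 h. The labels do not say whether NTC cells received doxycycline, so the drug and the hairpin cannot be told apart, nor whether a line is 1 clone or many. Phorbol esters activate protein kinase C directly.

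Class I molecules show peptides from the inside of the cell to CD8 T cells and, through HLA-E and others, to natural killer cells. Their genes are constitutively transcribed in lymphocytes and are raised by interferons and by NF-kappaB, with NLRC5 as the class I transactivator that works through the SXY module of these promoters. Protein kinase C theta carries T cell receptor signals to NF-kappaB.

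Each table sets 6 shPRKCQ libraries of both lines against 6 NTC libraries of both lines, and gives 1 log2 fold change, 1 p and 1 adjusted p per gene. No value per library was used here, so levels, depth, the spread between replicates and the separate lines are not shown. In bulk RNA, fewer cells that express a gene and less RNA per cell cannot be told apart. For the same reason the T cell identity of the libraries could not be checked against marker levels. PRKCQ itself was at 23.7% of the NTC level in TPA and 23.1% in DMSO, computed from the authors' deposited tables. A negative log2 fold change was read as lower in shPRKCQ cells because PRKCQ is negative in both tables.

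The promoters are shown first because class I genes share short elements there that respond to interferon and to NLRC5. Sequences are RefSeq's, on GRCh38.p14, 5′ to 3′ on the gene's own strand, and 8 of the 9 genes matched a promoter window. Capitals mark 4 patterns searched on both strands: the interferon-response patterns GAANNGAAA and a longer form with GAAA on each side of any 2 bases, the CRE-like core TGACG that lies in the X box of class I promoters, and the CCAAT box ATTGG of the Y box. The capitals of neighbouring or overlapping matches run together. The first 4 stretches lie upstream of every annotated start of the gene. Those of TAP1 and TAPBP are the 30 bases around the match. They lie inside the gene bounds of GENCODE given below, downstream of the outermost annotated start.
HLA-B, chr6:31357189-31357379, minus strand: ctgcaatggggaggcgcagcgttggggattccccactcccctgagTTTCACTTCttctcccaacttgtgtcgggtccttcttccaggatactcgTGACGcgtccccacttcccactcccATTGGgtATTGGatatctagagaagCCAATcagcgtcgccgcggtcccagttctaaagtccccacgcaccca
HLA-C, chr6:31272131-31272292, minus strand: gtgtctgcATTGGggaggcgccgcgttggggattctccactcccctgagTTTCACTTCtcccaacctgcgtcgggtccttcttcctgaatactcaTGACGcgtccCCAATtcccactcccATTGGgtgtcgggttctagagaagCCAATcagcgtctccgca
B2M, chr15:44711317-44711486, plus strand: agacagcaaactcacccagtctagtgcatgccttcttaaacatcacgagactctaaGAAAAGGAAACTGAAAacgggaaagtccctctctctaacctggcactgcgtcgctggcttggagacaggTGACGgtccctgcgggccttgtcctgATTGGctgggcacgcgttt
TAP2, chr6:32838781-32838939, minus strand: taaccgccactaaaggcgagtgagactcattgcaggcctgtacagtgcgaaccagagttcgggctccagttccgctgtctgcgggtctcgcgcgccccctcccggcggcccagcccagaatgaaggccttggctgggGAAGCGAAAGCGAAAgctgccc
TAP1, chr6:32853816-32853845, minus strand: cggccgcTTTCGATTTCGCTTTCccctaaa
TAPBP, chr6:33314076-33314105, minus strand: tttggagGAAAGTGAAAGTGAAAggaggaa

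All 8 genes with a promoter window held at least 1 of the interferon-response patterns in any of their windows, against 12.8% of 27305 genes with RefSeq windows of the same 300 bases. HLA-B and HLA-C carried the shorter pattern starting at -155 and -151, counted from the start on which the RefSeq window is placed. TGACG lay downstream of it, with 3 CCAAT boxes in HLA-B and 4 in HLA-C. B2M carried overlapping matches starting at -144 by the same count, then TGACG and 1 CCAAT box. For these genes the RefSeq start differs from the GENCODE gene start given below, so distances from the latter are not the same. TAP1 and TAPBP each held 2 overlapping matches of the longer pattern, and neither held the CRE-like core. That core was found in 4 of the 8 genes, against 28.4% of all genes, and ATTGG in 6, against 39.7%. The interferon gamma activated site TTCNNNGAA, searched on the same windows, was in 1 of the 8, in a TAP1 window other than the one with the stretch shown, against 9.38% of all genes. ERAP1 held the 2 interferon-response patterns in different windows. A match of letters describes the window and does not show binding.

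With TPA, knockdown of PRKCQ changed none of the 9 genes past an adjusted p of 0.05 in the authors' deposited table, where 0.113% of all 19417 genes passed. With DMSO none of the 9 passed either, where 0.108% of 13007 genes did. At an unadjusted p under 0.05 the count was 0 of 9 in both, against 3.99% of genes in TPA and 3.04% in DMSO. The smallest unadjusted p among the 9 was 0.214 in TPA, for TAP1, and 0.108 in DMSO, for TAPBP. The p-values are from a fit across all genes by the authors. DESeq2 is listed in the submitters' processing notes, without the step it served.

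By sign, the values leaned to the lower side. In TPA 8 of 9 genes were negative with a median log2 fold change of -0.13, against 47.0% negative and a median of 0.011 over all genes tested. In DMSO 7 of 9 were negative with a median of -0.052, against 47.7% negative and a median of 0.0075 over all genes. Each of the values has an interval that includes 0, so these counts are a description of the signs and no gene is shown to have fallen. Each 95% interval below was built from an implied standard error, the fold change divided by the z-value of its p. The intervals would be off if the authors shrank the fold changes after testing. Over all genes tested the z-values had a robust SD of 0.84 in TPA and 0.75 in DMSO. This is narrower than a standard normal spread, so the p-values may be too large and the intervals too wide.

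**Figure D1:**
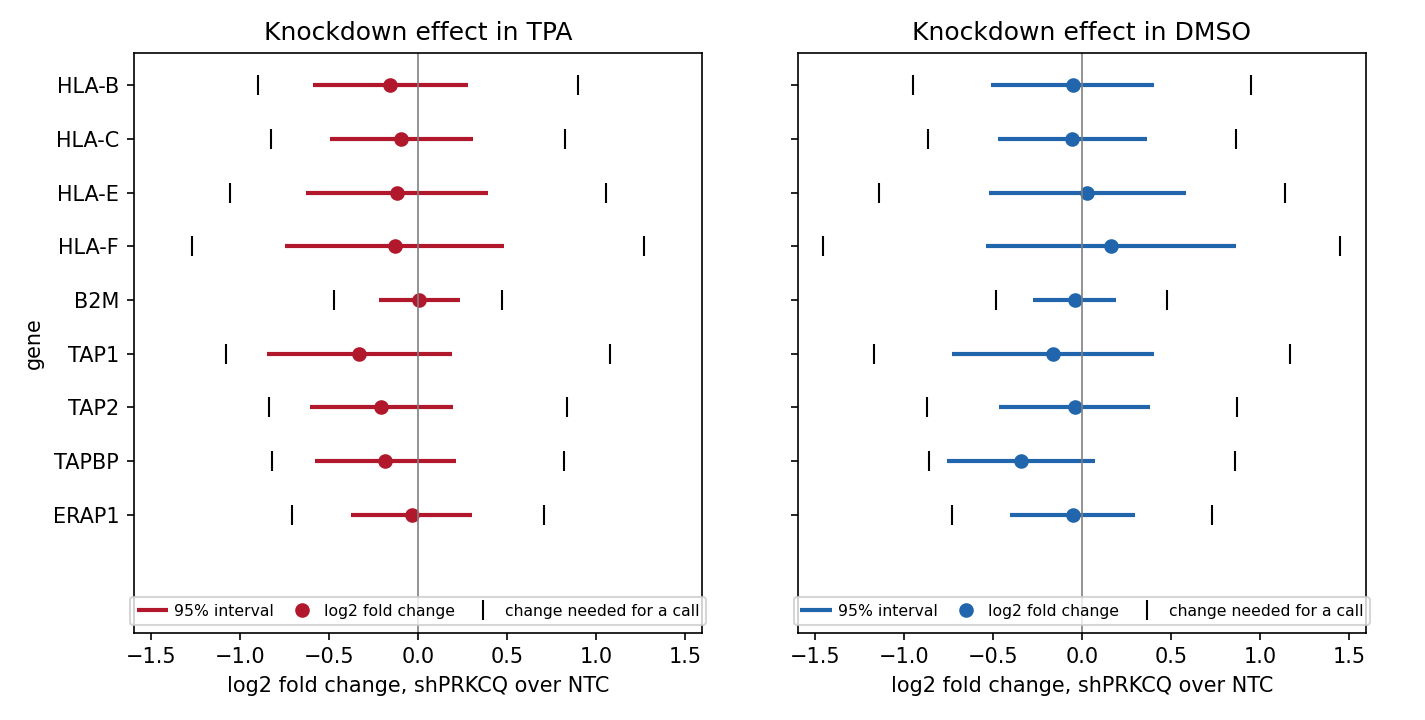
Log2 fold change of shPRKCQ over NTC for the 9 genes in TPA (left) and DMSO (right), with dots for the authors' value, bars for its 95% interval and black ticks for the change at which a gene of that error would have been called. All 18 intervals include 0 and all dots lie inside the ticks.

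HLA-B and HLA-C are classical heavy chains, which present peptides to CD8 T cells and bind receptors of natural killer cells. HLA-B (ENSG00000234745.10, chromosome 6, 31269491 to 31357188, minus strand of GRCh38) was at -0.15 in TPA and -0.052 in DMSO in the authors' deposited tables. These are 89.8% of the NTC level in TPA, with an interval of 66.4% to 121%, and 96.5% in DMSO, with an interval of 70.2% to 133%. HLA-C (ENSG00000204525.16, chromosome 6, 31268749 to 31272130, minus strand) was at -0.094 in TPA and -0.054 in DMSO in the authors' deposited tables. Its interval ran from 71.0% to 124% of the NTC level in TPA and from 72.1% to 129% in DMSO. Neither classical chain moved beyond its error, and both sat closer to the NTC level in DMSO than in TPA.

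HLA-E presents leader peptides of other class I chains to the NKG2A receptor, and HLA-F is a nonclassical chain that can reach the surface without peptide. HLA-E (ENSG00000204592.8, chromosome 6, 30489467 to 30494205, plus strand) was at -0.12 in TPA and 0.032 in DMSO in the authors' deposited tables. Its 95% interval ran from 64.6% to 131% of the NTC level in TPA and from 69.7% to 150% in DMSO. HLA-F (ENSG00000204642.13, chromosome 6, 29722775 to 29738528, plus strand) was at -0.13 in TPA and 0.16 in DMSO in the authors' deposited tables. It had the widest interval of the 9 in both, 59.7% to 140% of the NTC level in TPA and 68.8% to 182% in DMSO. The sign of these nonclassical chains differed between the treatments, with intervals that overlap over most of their length.

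B2M is the invariant light chain without which most class I molecules do not reach the cell surface. B2M (ENSG00000166710.18, chromosome 15, 44711487 to 44718877, plus strand) was at 0.0064 in TPA and -0.041 in DMSO in the authors' deposited tables. That is 100.4% of the NTC level in TPA and 97.2% in DMSO. It was the most precisely measured of the 9, with intervals of 85.8% to 118% in TPA and 82.7% to 114% in DMSO. An effect on B2M larger than these bounds is outside the 95% interval in either treatment. In TPA 96.9% of all genes had a larger absolute log2 fold change than B2M.

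TAP1 and TAP2 form the transporter that moves cytosolic peptides into the endoplasmic reticulum. TAP1 (ENSG00000168394.11, chromosome 6, 32845209 to 32853978, minus strand) had the lowest TPA value of the 9, with -0.33 in TPA and -0.16 in DMSO in the authors' deposited tables. This is 79.5% of the NTC level in TPA (interval 55.4% to 114%) and 89.3% in DMSO (interval 60.3% to 132%). TAP2 (ENSG00000204267.13, chromosome 6, 32821833 to 32838780, minus strand) was at -0.21 in TPA and -0.041 in DMSO in the authors' deposited tables. Its interval was 65.5% to 115% of the NTC level in TPA and 72.5% to 130% in DMSO. In TPA 15.1% of all genes had a larger absolute log2 fold change than TAP1, and 29.2% a larger one than TAP2. The unadjusted p was 0.214 for TAP1 and 0.317 for TAP2 in TPA in the authors' deposited table.

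TAPBP encodes tapasin, which holds empty class I molecules at the transporter and edits their peptides. TAPBP (ENSG00000231925.11, chromosome 6, 33299694 to 33314387, minus strand) was at -0.18 in TPA and -0.34 in DMSO in the authors' deposited tables, and so had the lowest DMSO value of the 9. This is 88.0% of the NTC level in TPA (interval 66.8% to 116%) and 79.0% in DMSO (interval 59.2% to 105%). In DMSO 6.58% of all genes had a larger absolute log2 fold change, and 6.04% a smaller p. ERAP1, an aminopeptidase that trims peptides to the length that class I binds (ENSG00000164307.12, chromosome 5, 96760810 to 96808100, minus strand), was at -0.036 in TPA and -0.052 in DMSO in the authors' deposited tables. ERAP1 stayed between 77.0% and 124% of the NTC level in TPA and between 75.5% and 123% in DMSO, by its intervals.

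**Figure D2:**
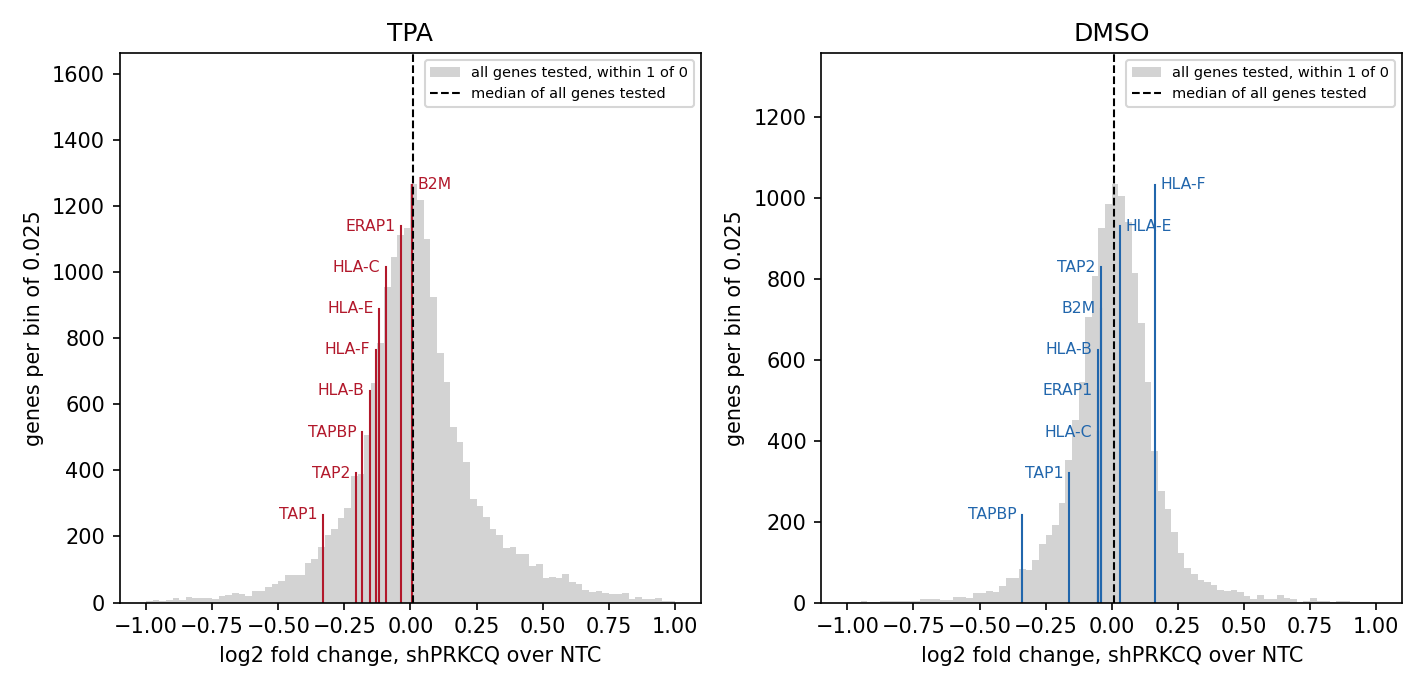
Number of genes per bin of log2 fold change (shPRKCQ over NTC, values within 1 of 0) in TPA (left) and DMSO (right), with a coloured line for each of the 9 genes, whose heights only separate the labels. TAP1 lies farthest to the left of the 9 in TPA, where 5.91% of all genes were lower, and TAPBP in DMSO, where 3.44% were lower.

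The order of the values was TAP1, TAP2, TAPBP, HLA-B, HLA-F, HLA-E, HLA-C, ERAP1 and B2M from lowest to highest in TPA. It was TAPBP, TAP1, HLA-C, ERAP1, HLA-B, B2M, TAP2, HLA-E and HLA-F in DMSO. The intervals of all neighbours in either order overlap. The 4 heavy chains had a median of -0.13 in TPA and -0.010 in DMSO, and the other 5 genes a median of -0.18 in TPA and -0.052 in DMSO.

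How large an effect would have been called differed between the genes. The largest p that passed was 5.01e-05 in TPA and 5.2e-05 in DMSO, which corresponds to a z-value of about 4.06 and 4.05 in absolute size. With its own error, B2M would have been called at a 1.39-fold change in either treatment. HLA-F would have needed a 2.41-fold change in TPA and a 2.74-fold change in DMSO, and TAP1 a 2.11-fold change in TPA and a 2.25-fold change in DMSO. Implied standard errors of the 9 ran from 0.116 to 0.313 in TPA and from 0.119 to 0.359 in DMSO, against medians of 0.167 in TPA and 0.172 in DMSO over the 13007 genes tested in both. In either treatment 8 of the 9 had an error above that median. Changes smaller than these sizes were not detectable as calls here.

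The difference of the knockdown effect between TPA and DMSO was tested for each gene over 13007 genes, with the standard error of 2 independent tables, which share no library. The values of the 2 tables varied together over genes: the z-values of the difference had a robust SD of 0.579, against 0.779 if the 2 tables varied separately. Whether their errors also varied together was not tested. The p-values and intervals of the difference rest on independent errors. The spread is narrower than a standard normal one, so these p-values may be too large and the intervals too wide. None of the 9 differed past an adjusted p of 0.05 (Benjamini-Hochberg), where 0% of all genes did. At an unadjusted p under 0.05 there were 0 of the 9, where 57 genes in all (0.438%) passed. With so small a share over all genes, 0 of the 9 does not show that the effect was the same in both treatments. HLA-F had the largest difference in absolute size, -0.30 on the log2 scale for TPA minus DMSO, with a 95% interval of -1.23 to 0.64. TAP1 differed by -0.17 (interval -0.94 to 0.60), TAP2 by -0.17 (interval -0.75 to 0.42) and TAPBP by 0.16 (interval -0.42 to 0.73). B2M differed by 0.048 (interval -0.28 to 0.37). In 6 of 9 genes the value was lower in TPA, as it was in 52.5% of all genes.

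Other genes of the pathway are given from lists written out with the comparisons. For every list below, the share of all genes tested that passed was 0.113% in TPA and 0.108% in DMSO. At an unadjusted p under 0.05 it was 3.99% and 3.04%. In the immunoproteasome and its activator, which make peptides fit for class I, 0 of 5 genes passed in either direction in TPA and 0 of 5 in DMSO. The median was -0.0020 in TPA and 0.015 in DMSO, computed from the authors' deposited tables. PSMB9, annotated on the opposite strand over all 8770 bases of TAP1 in GENCODE, was at -0.27 in TPA and 0.015 in DMSO in the authors' deposited tables (unadjusted p = 0.387 and 0.966). PSMB8, which lies between TAP1 and TAP2, was at -0.17 in TPA and 0.0059 in DMSO in the authors' deposited tables, and PSMB10, on another chromosome, at 0.0010 and 0.039.

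The constitutive proteasome gave no calls. Of its 3 catalytic subunits and 11 further core subunits none passed in TPA or DMSO, with medians of 0.00073 and -0.018 in TPA and of 0.049 and 0.064 in DMSO, computed from the authors' deposited tables. PSMB5 was at 0.10 in TPA and 0.20 in DMSO, PSMB3 at -0.068 and 0.046, and PSMA3 at -0.066 and 0.22, in the authors' deposited tables. Of these 14 proteasome genes 8 were negative in TPA and 0 in DMSO, against 47.0% and 47.7% of all genes tested.

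Chaperones and editors of class I folding had 6 of 7 genes negative in TPA and 7 of 7 in DMSO, against 47.0% and 47.7% of all genes tested. Of these genes 0 passed in either treatment. The list median was -0.092 in TPA and -0.082 in DMSO, computed from the authors' deposited tables. CANX, the chaperone calnexin that binds new heavy chains, was at -0.21 in TPA and -0.069 in DMSO in the authors' deposited tables (unadjusted p = 0.0710 and 0.561). TAPBPL, the tapasin-related editor TAPBPR, was at -0.039 in TPA and -0.13 in DMSO in the authors' deposited tables (unadjusted p = 0.644 and 0.138). Of the heavy chains outside the 9, HLA-G was at -0.021 in TPA and -0.36 in DMSO, and MR1, which presents vitamin B metabolites, at 0.16 and 0.0085, in the authors' deposited tables; none of the 3 tested passed.

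Among 23 transactivators and signalling genes of class I expression tested in TPA and 21 in DMSO, 0 passed in either direction. NLRC5 was at 0.098 in TPA and 0.12 in DMSO, and IRF1, an interferon-induced activator of class I promoters, at -0.011 and -0.0014, in the authors' deposited tables. RFX5, a subunit of the factor that binds the X box of class I and class II promoters, was at -0.24 in TPA and -0.12 in DMSO in the authors' deposited tables. Its unadjusted p there was 0.0214 in TPA. It was the single gene of this list under 0.05, 1 of 23 in TPA, against 3.99% of all genes tested. NFYA, a subunit of the CCAAT-binding factor, was at -0.022 in TPA and 0.14 in DMSO in the authors' deposited tables. The medians were -0.022 in TPA and 0.032 in DMSO.

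Repressors and turnover factors gave 0 calls among 8 genes in TPA and 7 in DMSO. SUZ12, a Polycomb subunit, was at -0.15 in TPA and -0.16 in DMSO in the authors' deposited tables, and MARCH4, a ubiquitin ligase of class I that is listed for TPA alone, was at 0.34. The stress ligands of NKG2D, which have a class I fold, also gave 0 calls among 7 genes in TPA and 4 in DMSO. ULBP3 was at 0.60 in TPA (unadjusted p = 0.0486), and ULBP1 was at 0.44 in TPA and -0.37 in DMSO, in the authors' deposited tables. The list median was 0.36 in TPA, with 2 of 7 negative, and -0.083 in DMSO, with 3 of 4 negative. Over all genes tested 47.0% were negative in TPA and 47.7% in DMSO. The list medians cover different genes, because ULBP3, RAET1E (0.45) and RAET1G (0.36) were tested in TPA alone. Of the genes tested in both besides ULBP1, MICA was at 0.13 in TPA and 0.28 in DMSO. MICB was at -0.28 and -0.11, and ULBP2 at -0.14 and -0.052, in the authors' deposited tables.

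MHC class II genes, which present peptides to CD4 T cells, had a lower median in TPA than the class I genes. Of 12 genes of the class II list 0 passed in TPA and all 12 were negative, against 47.0% of all genes tested. Of 8 genes in DMSO 0 passed and 5 were negative, against 47.7% of all genes tested. The medians were -0.38 in TPA and -0.042 in DMSO, computed from the authors' deposited tables. In TPA the authors' deposited table has HLA-DRA at -0.86, CIITA at -0.64 and HLA-DQA1 at -0.48, with unadjusted p of 0.0273, 0.0301 and 0.0365. In DMSO it has CIITA, the class II transactivator, at 0.010 and HLA-DPA1 at -0.12. HLA-DRA, HLA-DRB1, HLA-DQA1 and HLA-DQB1 were tested in TPA alone, and over the 8 genes tested in both the TPA median was -0.31. The ranges of the classes overlapped in TPA: TAP1 at -0.33 lay below 5 of the 12 class II genes, of which HLA-DOB was closest to 0 at -0.082. The difference between the classes was not tested.

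Of the marker lists, 0 of 10 T cell genes passed in TPA and 0 of 4 in DMSO. In TPA 1 of the 10 was negative, against 47.0% of all genes tested, and in DMSO 2 of the 4, against 47.7%. The list median was 0.20 in TPA and 0.083 in DMSO, computed from the authors' deposited tables. CD5 was at 0.56 and CD7 at 0.69 in TPA, and PTPRC at 0.41 in TPA and 0.50 in DMSO, in the authors' deposited tables. CD3D and TRAC, at -0.056 and -0.12, were the negative ones in DMSO in the authors' deposited table. Among 12 markers of B cell, myeloid and epithelial or stromal cells tested in TPA and 3 in DMSO, 0 passed. Of these 12, the 3 at an unadjusted p under 0.05 in the authors' deposited TPA table, against 3.99% of all genes, were CD79B at -1.10, PDGFRB at -1.02 and KRT5 at 0.77. The other 3 B cell genes tested in TPA were positive, at 0.065 to 0.32, and of the other stromal and epithelial genes EPCAM was at 0.056, KRT18 at 0.086 and COL1A1 at -0.46 in the authors' deposited table. The largest of 3 myeloid genes there was CSF1R at 0.32. The 3 tested in DMSO were CD79A at 0.36, ITGAM at 0.11 and COL1A1 at 0.31 in the authors' deposited table. Their levels are not in the tables, and their part in the class I values was not tested.

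**Figure D3:**
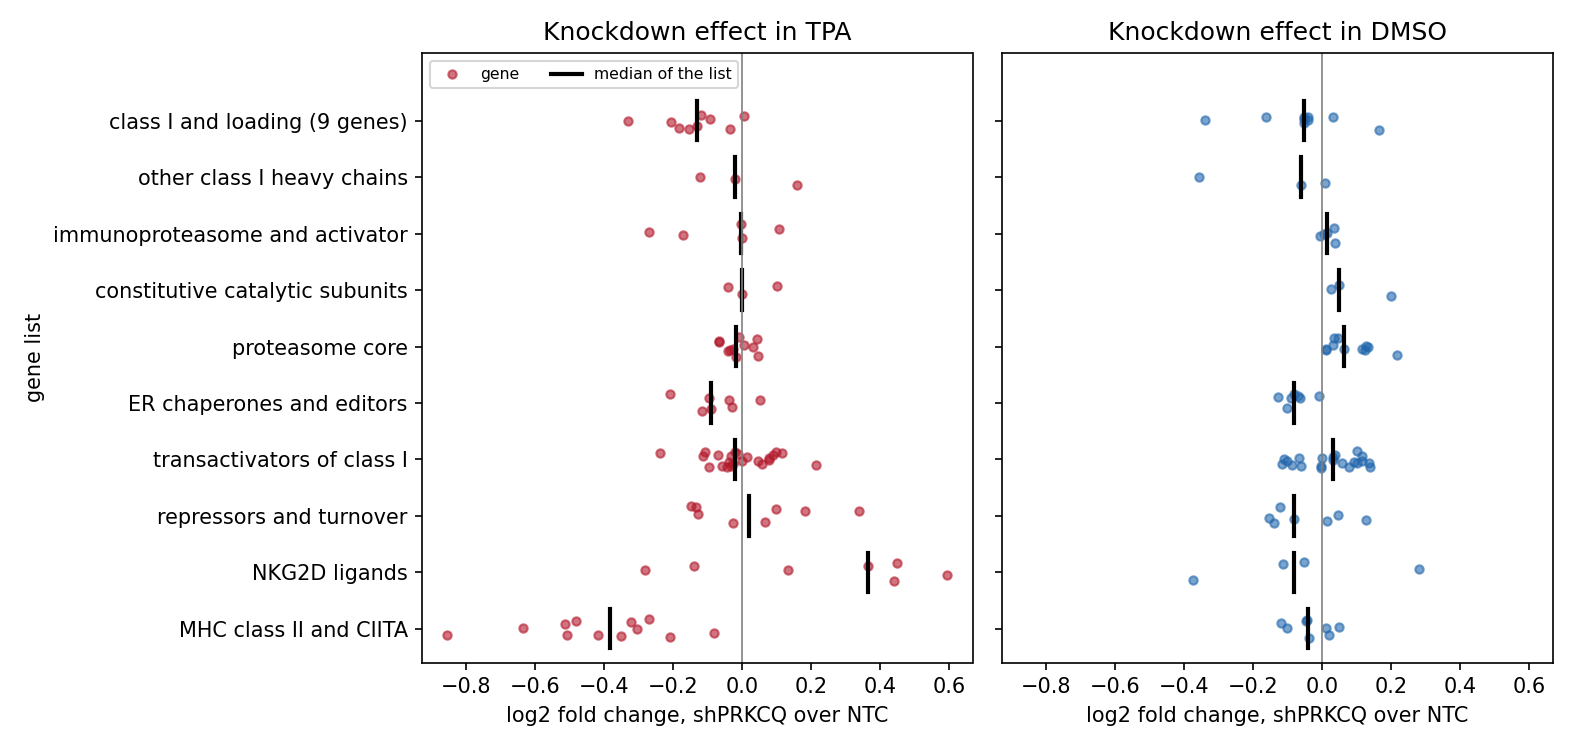
Log2 fold change of shPRKCQ over NTC for each gene of the class I and pathway lists in TPA (left) and DMSO (right), with dots for genes, a black bar for the list median and vertical scatter for legibility. The class I genes have a median of -0.13 in TPA, between the proteasome lists at 0.00073 and -0.018 and the class II list at -0.38.

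Of the 9 genes, 7 lie in the extended MHC of chromosome 6, which was taken from ZFP57 to KIFC1 (29672392 to 33409924). Their neighbours also leaned to the lower side. Without the 9 genes and the class II list, 99 of 146 tested genes of the region were negative in TPA (67.8%) and 75 of 115 in DMSO (65.2%). The medians were -0.084 in TPA and -0.060 in DMSO, against -0.15 in TPA and -0.052 in DMSO for the 7 genes themselves. On chromosome 6 outside the region 45.2% of genes were negative in TPA and 41.4% in DMSO, and among all protein-coding genes 48.4% in TPA and 46.6% in DMSO.

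No gene of the region passed in either treatment, where 0.113% of all genes tested passed in TPA and 0.108% in DMSO. At an unadjusted p under 0.05 there were 4 of 163 genes in TPA (2.45%), against 3.99% of all genes tested. In DMSO there were 2 of 128 (1.56%), against 3.04%. These shares were not above those over all genes. Those in TPA were HLA-DRA, HLA-DQA1, ZBTB12 and GPSM3, and those in DMSO were TRIM15 and PRRT1. The last 4 of these 6 were named after their values were seen. None of the 6 was under 0.05 in both treatments.

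**Figure D4:**
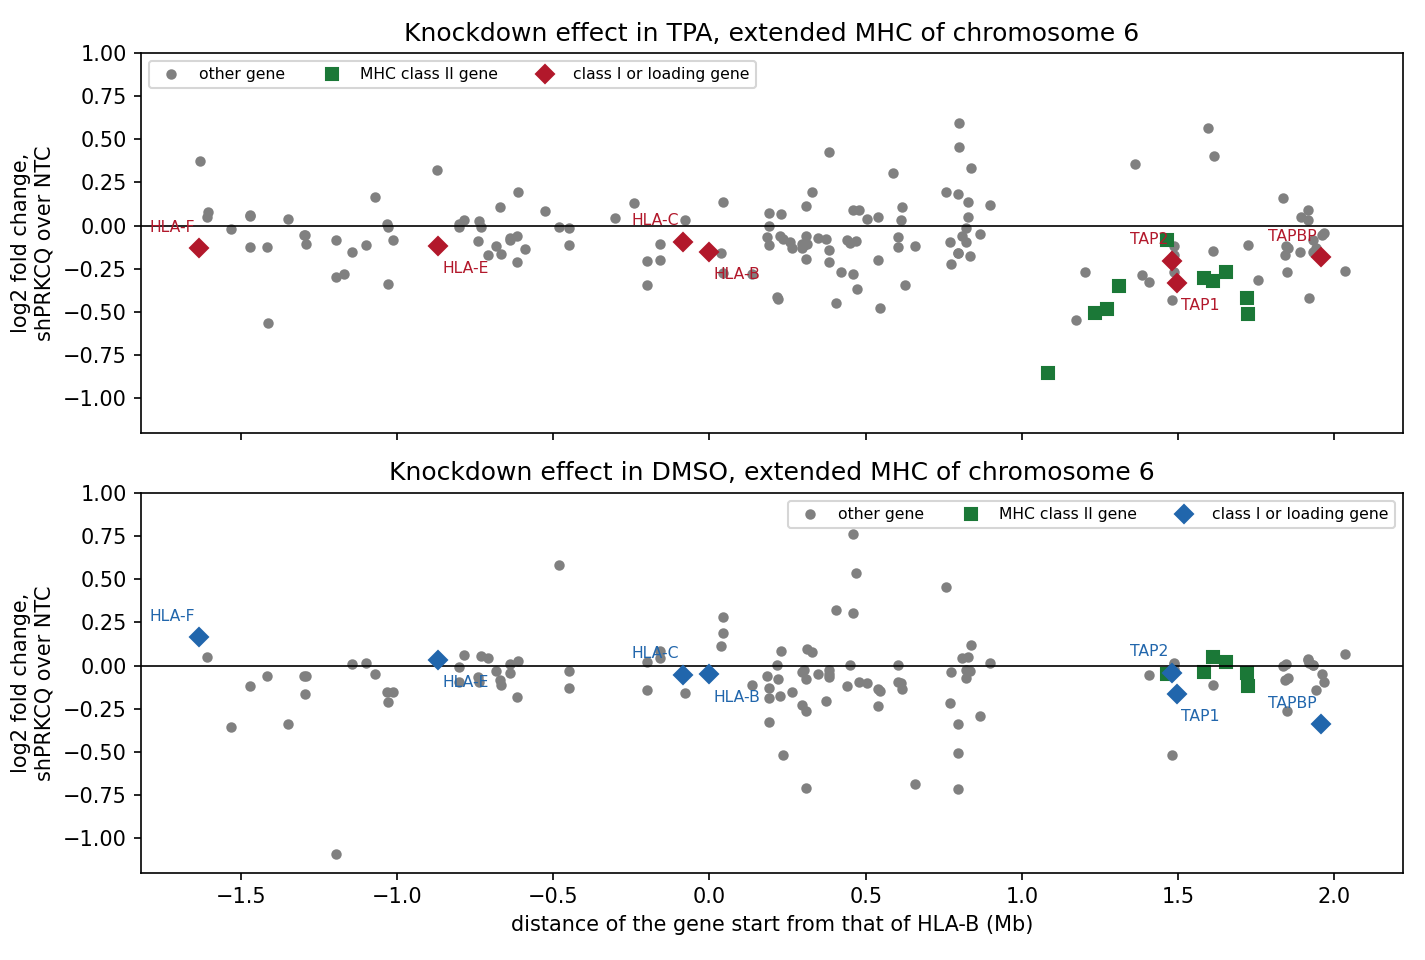
Log2 fold change of shPRKCQ over NTC for all tested genes of the extended MHC in TPA (upper) and DMSO (lower), against the distance of each gene's start from that of HLA-B in Mb. Most points of all 3 kinds lie below 0 in both panels, and the class II genes reach the lowest values in TPA.

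Read assignment bears on several of these genes, and how reads were divided between similar transcripts is not given in the sources used here. In GENCODE release 29, 31.3% of the distinct 50-base windows of TAP2 transcripts also occur in AL669918.1, a same-strand gene that spans all of TAP2. AL669918.1 was at -0.43 in TPA and -0.52 in DMSO in the authors' deposited tables (unadjusted p = 0.191 and 0.181), lower than TAP2 in both, and it was looked up for this overlap. Shared windows made up 5.38% for HLA-C, 4.34% for HLA-E, 2.72% for HLA-B and 0.977% for HLA-F, with HLA-B and HLA-C each other's main partner. They made up 4.17% for TAPBP and 0.880% for TAP1, and 0 of the windows of B2M and ERAP1 were shared. The annotated span of HLA-B covers 2640 of the 3382 bases of HLA-C on the same strand. HLA-B and HLA-C are also highly polymorphic, and the reference carries other alleles than a given line may have. The part of read assignment in these values was not tested.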

How the data were processed

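RNA was sequenced from strand-specific, poly(A)-selected libraries with unique molecular identifiers, per the labels' protocols. STAR 2.5.3a, RSEM 1.3.0, DESeq2 1.18.1 and GRCh38 are listed in the submitters' processing notes, without their roles. Per the file headers, each table the authors deposited holds 3 columns, namely the log2 fold change, its p-value and the adjusted p-value. The model and any shrinkage are not stated there. The adjusted p-values differed from a Benjamini-Hochberg adjustment by a relative 0.00451 (TPA) and 0.00235 (DMSO) at most. In TPA 2910 genes share the fold change 0.000537, so shrinkage by the authors is possible and the tables may not be on 1 scale. Depth is unknown.

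From these, percentages of the NTC level, z-values, implied standard errors, 95% intervals and the TPA minus DMSO difference were computed (Python 3.11.15, numpy 2.4.6, scipy 1.17.1, pandas 2.3.3), the last checked on simulated independent tables. Coordinates come from GENCODE release 29, which held all gene identifiers. The 9 genes and the lists were chosen with earlier results of these data known. Named from each list were genes at an unadjusted p under 0.05 and the largest absolute value per treatment. PSMB8, NLRC5, IRF1, AL669918.1 and some marker, class II and NKG2D ligand genes were named outside that rule, after their values were seen. Labels call the replicates independent.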

Additional observations from a re-analysis of the deposited data

How the results depend on the processing

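No class I or loading gene was called in TPA or DMSO under any alternative run: an adjusted p under 0.1, an adjustment over every gene with a p, z-values divided by their robust SD, genes tested in both tables only, and a minimum absolute log2 fold change of 1. The last can only remove calls, and in DMSO the adjustment over every gene with a p and the genes of both tables are the same 13007 genes as before, so these could not have added a call there. With rescaled z-values, which gave 113 calls over all genes in TPA and 109 in DMSO, the lowest adjusted p among the 9 was 0.873 in TPA, for TAP1, and 0.544 in DMSO, for TAPBP. Over all genes, the TPA count of 22 became 39 at an adjusted p under 0.1, 8 in genes of both tables and 14 with the minimum fold change, and the DMSO count of 14 became 3 with that minimum. Centring on the median of all genes with a p, 0.00054 in TPA and 0.0075 in DMSO, moved no sign. It could move none, because each median lay nearer 0 than any value of the 9 in its treatment. The TPA median is the fold change that 2910 genes share. Centring on the median of the genes tested, chosen after seeing the data, put all 9 genes below 0 in TPA, B2M included, and 7 in DMSO. The difference between treatments gave 0 of the 9 under every alternative, with 24 of 13007 genes when its z-values were rescaled. No paired analysis was possible because only summary statistics per gene were at hand, and leaving out replicates was not run for the same reason. What depth limits could not be assessed.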
